A study of Rattus norvegicus with 12 samples.

Results

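The chemokine genes Cxcl9, Cxcl10 and Cxcl11 were followed in cultured rat hepatocytes with and without interferon alpha. All probe sets that the platform annotation assigned to 1 of these 3 genes were taken, 4 of the 31042 probe sets tested, out of 14217 genes with a named probe set. Cxcl10 was measured by the probe set 1387969_at, Cxcl11 by 1379365_at, and Cxcl9 by 1373544_at and 1382454_at. The genes were chosen with their differences between interferon alpha and control in these same arrays known, so those differences are given as a description with no test.

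The cells were primary hepatocytes of Wistar rats, freed from the liver with collagenase, purified on a Percoll gradient and used on the day after isolation. The medium held rat interferon alpha at 250 U/ml for 6 h, none for 6 h, the same dose for 3 h, or none for 3 h. Each of these 4 groups held 3 Affymetrix arrays, labelled as biological replicates 1 to 3. The age and sex of the rats, and which rat or culture stands behind each replicate number, are not given in the sources used here, so p-values measure only the spread between these arrays. Values are log2 levels made with RMA, which removes background, brings the arrays to 1 distribution and combines the probes of each set, so 1 unit is a doubling. Array medians ran from 5.16 to 5.21, correlations between arrays from 0.979 to 0.997, and 0 pairs of arrays held identical values. Levels of different probe sets are not compared. In cultures of this kind, more RNA per cell and more cells of a type cannot be told apart.

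Chemokines are small secreted proteins that direct the movement of immune cells. CXCL9, CXCL10 and CXCL11 share the receptor CXCR3, found mainly on activated T cells and natural killer cells, and in the inflamed liver they draw such cells into the tissue. Interferon gamma induces all of them, whereas type I interferons such as interferon alpha are best known for inducing CXCL10 and CXCL11 through the transcription factor complex ISGF3, of which STAT2 and IRF9 are subunits. NF-kB and IRF1 act on their promoters as well.

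The 3 genes lie beside each other on rat chromosome 14 in the order Cxcl11, Cxcl10, Cxcl9. Their promoters are printed because 2 of these neighbours were higher with interferon alpha and the other was not. The sequences are those of RefSeq, assembly GRCr8, plus strand, from 250 bases before to 50 bases after the annotated start. They span chr14:15988816-15989115 for Cxcl10, chr14:15973478-15973777 for Cxcl11 and chr14:16006916-16007215 for Cxcl9. Capitals mark matches to 4 motifs. The ISRE motif, core of the interferon-stimulated response element that ISGF3 and IRF proteins bind, was GAAA, any 2 bases and GAAA. The GAS motif, the gamma-activated site that STAT dimers bind, was TTCNNNGAA. The long NF-kB motif was GGGA, any 2 bases and TTCC, and the short NF-kB motif was GGGANTTCC.
Cxcl10: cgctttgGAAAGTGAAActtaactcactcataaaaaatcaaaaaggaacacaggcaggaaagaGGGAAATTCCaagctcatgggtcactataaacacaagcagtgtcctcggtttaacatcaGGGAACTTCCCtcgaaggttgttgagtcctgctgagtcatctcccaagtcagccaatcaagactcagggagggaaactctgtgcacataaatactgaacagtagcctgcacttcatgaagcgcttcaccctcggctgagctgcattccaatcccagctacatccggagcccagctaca
Cxcl11: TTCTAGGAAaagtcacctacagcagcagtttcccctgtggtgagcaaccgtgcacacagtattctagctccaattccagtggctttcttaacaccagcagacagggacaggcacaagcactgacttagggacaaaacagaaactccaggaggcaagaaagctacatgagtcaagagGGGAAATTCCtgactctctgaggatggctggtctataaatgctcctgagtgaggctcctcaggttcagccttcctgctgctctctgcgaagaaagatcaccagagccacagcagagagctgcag
Cxcl9: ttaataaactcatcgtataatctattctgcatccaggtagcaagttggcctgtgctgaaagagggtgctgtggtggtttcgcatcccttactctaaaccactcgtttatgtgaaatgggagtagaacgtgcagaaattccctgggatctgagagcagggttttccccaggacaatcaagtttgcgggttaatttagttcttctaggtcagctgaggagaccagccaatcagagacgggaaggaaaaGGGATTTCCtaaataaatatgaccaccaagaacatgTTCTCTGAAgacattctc

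The search covered both strands of each window. The ISRE motif was found in the Cxcl10 window at -243 to -234, counted from the start, and in neither of the other windows. The GAS motif was found in the Cxcl11 window at -250 to -242 and in the Cxcl9 window at 33 to 41. The long NF-kB motif was found in the Cxcl10 window at -187 to -178 and -128 to -119, where a match on the minus strand at -127 to -118 overlaps it, and in the Cxcl11 window at -74 to -65. The short NF-kB motif was found in the Cxcl9 window at -4 to 5. Of 33469 rat promoters of the same length, 3.92% held the ISRE motif, 8.87% the GAS motif, 1.3% the long and 1.64% the short NF-kB motif, and 2.9% either NF-kB motif. A match is a description of letters, and whether a factor binds there was not tested.

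Cxcl10 had levels of 11.33, 11.71 and 10.17 with interferon alpha at 6 h, against 6.99, 6.46 and 6.68 in controls at 6 h (replicates 1, 2 and 3). At 3 h the levels were 10.14, 12.28 and 12.08 with interferon alpha and 6.65, 6.31 and 6.61 in controls. All treated arrays therefore lay above all control arrays, with the lowest treated array at 10.14 and the highest control at 6.99. Means were 11.07 ± 0.80 and 6.71 ± 0.27 for treated and control cells at 6 h, and 11.50 ± 1.18 and 6.52 ± 0.18 at 3 h (SD, n = 3 each). The difference was 4.36 ± 0.52 at 6 h, or 20.5-fold, and 4.98 ± 0.52 at 3 h, or 31.6-fold (standard error, SE, of the limma fit). Of the 31042 probe sets, 5 had a larger difference at 6 h and 0 had one at 3 h. In order of level the groups ran from treated 3 h and treated 6 h to control 6 h and control 3 h, and the neighbours of the same treatment overlapped.

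Cxcl11 had levels of 11.01, 11.66 and 10.67 with interferon alpha at 6 h, against 8.94, 7.76 and 8.54 in controls at 6 h. At 3 h the levels were 9.70, 10.90 and 10.29 with interferon alpha and 9.36, 8.23 and 9.22 in controls. The groups did not overlap at either time, but at 3 h the lowest treated array and the highest control, both of replicate 1, were close. Means were 11.11 ± 0.50 and 8.41 ± 0.60 for treated and control cells at 6 h, and 10.30 ± 0.60 and 8.94 ± 0.61 at 3 h (SD, n = 3 each). The difference was 2.70 ± 0.41 at 6 h, or 6.49-fold, and 1.36 ± 0.41 at 3 h, or 2.57-fold (SE). Larger differences were found for 31 probe sets at 6 h and 43 at 3 h. In order of level the groups ran from treated 6 h and treated 3 h to control 3 h and control 6 h. The treated groups overlapped each other, as did the controls.

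The Cxcl9 levels lay close together in treated and control arrays of each replicate number. On the probe set 1373544_at its levels were 10.86, 11.89 and 9.35 with interferon alpha at 6 h, against 10.83, 11.88 and 9.39 in controls at 6 h. At 3 h they were 10.61, 11.69 and 9.29 with interferon alpha and 10.60, 11.65 and 9.31 in controls. Treated and control levels thus overlapped fully at both times, and each replicate number kept its own level in all 4 groups. Means were 10.70 ± 1.28 and 10.70 ± 1.25 for treated and control cells at 6 h, and 10.53 ± 1.20 and 10.52 ± 1.17 at 3 h (SD, n = 3 each). Between arrays of the same number, treated minus control was 0.03, 0.01 and -0.04 at 6 h and 0.00, 0.05 and -0.02 at 3 h.

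**Figure D1:**
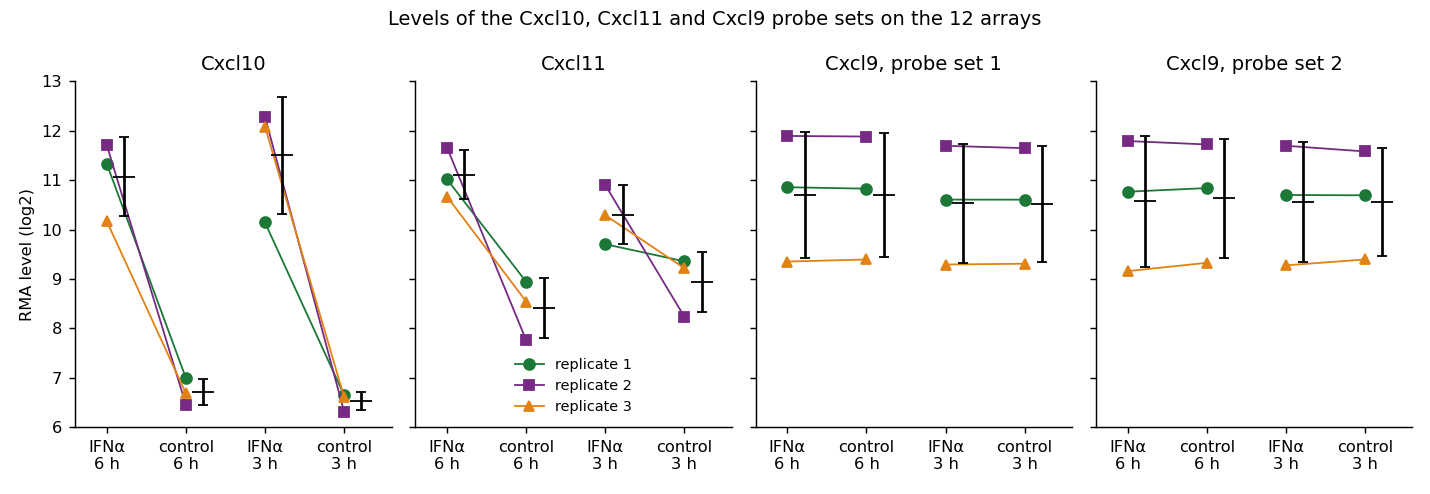
RMA log2 levels of the 4 probe sets on the 12 arrays, with interferon alpha (IFNα) left of control at each time, lines joining arrays of the same replicate number, and bars giving the mean ± SD of 3 arrays. Cxcl10 and Cxcl11 lie higher with interferon alpha at both times, whereas the Cxcl9 lines are level and stacked by replicate number; probe set 1 is 1373544_at and probe set 2 is 1382454_at.

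The other Cxcl9 probe set, 1382454_at, gave 10.77, 11.79 and 9.16 with interferon alpha at 6 h, against 10.84, 11.72 and 9.33 in controls. At 3 h it gave 10.70, 11.70 and 9.28 with interferon alpha and 10.69, 11.58 and 9.39 in controls. It repeated the pattern of the first probe set, from which it differed by -0.0931 to 0.193 on any array (first minus second). Both probe sets share the RNA of each array, so they are not replicates of each other, and that they measure Cxcl9 rests on the platform annotation, which can be old and was not checked against probe sequences here.

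That all 3 treated arrays lay above all 3 controls held for 4.29% of all probe sets at 6 h and 4.53% at 3 h. Cxcl10 and Cxcl11 were among them at both times and the Cxcl9 probe sets at neither. The genes were chosen with these differences known, so this is a description and carries no test.

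Differences between arrays of the same replicate number give the spread of the response over the 3 numbers. For Cxcl10 they were 4.34, 5.25 and 3.49 at 6 h and 3.49, 5.97 and 5.47 at 3 h. For Cxcl11 they were 2.07, 3.90 and 2.12 at 6 h and 0.35, 2.67 and 1.07 at 3 h. Replicate 2 gave the largest difference of both genes at both times, with the lowest controls and the highest treated levels. Among the 120 probe sets called higher at 6 h (adjusted p under 0.05), replicate 2 likewise gave the largest difference in 74 at 6 h and in 81 at 3 h. These 120 include Cxcl10 and Cxcl11 themselves, so the counts are no independent background. Without the arrays of replicate 2, the mean difference of Cxcl11 was 2.10 at 6 h and 0.71 at 3 h, and that of Cxcl10 was 3.91 and 4.48. For Cxcl9 the same differences lay between -0.04 and 0.05 on 1373544_at and between -0.17 and 0.12 on 1382454_at.

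**Figure D2:**
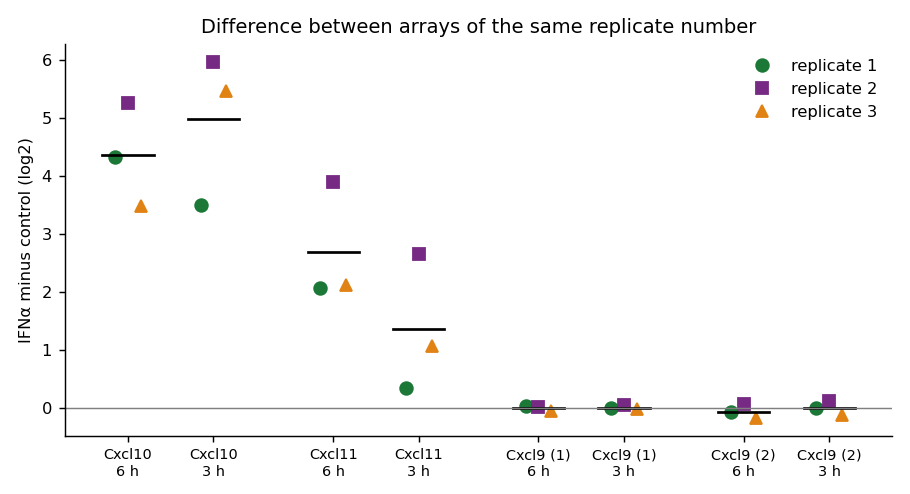
Difference in log2 level between the interferon alpha and control arrays of the same replicate number (points) and their mean (bars), for each probe set at 6 h and 3 h; Cxcl9 (1) is 1373544_at and Cxcl9 (2) is 1382454_at. The largest point is 5.97 for Cxcl10 at 3 h in replicate 2, and all points of Cxcl9 lie within 0.17 of 0.

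Both times were set side by side for Cxcl10 and Cxcl11, without a test between the genes. The difference of Cxcl10 at 3 h was 114% of that at 6 h, on the log2 scale, and that of Cxcl11 was 50.5%. Over the 120 probe sets called at 6 h, Cxcl10 and Cxcl11 included, the median was 44.2%, with a range of -4.78% to 128%. Of them, 1 exceeded Cxcl10 and 45 exceeded Cxcl11. These probe sets were picked by their difference at 6 h, the divisor of the percentage, which favours low values. The ranks among them are therefore a description only. The response at 6 h minus the response at 3 h was -0.62 ± 0.73 for Cxcl10 and 1.34 ± 0.58 for Cxcl11 (SE). Without replicate 3 the value of Cxcl10 was 0.06. Between treated arrays of the same number, 6 h minus 3 h was 1.31, 0.76 and 0.38 for Cxcl11 but 1.19, -0.57 and -1.92 for Cxcl10. Cxcl11 was thus higher at 6 h in each replicate, whereas Cxcl10 was higher in replicate 1 and lower in the other two. In controls the change was -0.41, -0.48 and -0.67 for Cxcl11 and 0.35, 0.14 and 0.07 for Cxcl10.

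Culture time itself was not used to choose the genes, so it was tested, as the difference between 6 h and 3 h averaged over treated and control cells and as that in controls alone. Averaged over both treatments, 3.89% of all probe sets passed, and 0 of the 4 chemokine probe sets did, nor did any at an unadjusted p under 0.05, where 16.6% of all did. Cxcl10 differed by -0.12 ± 0.37 (adjusted p = 0.932), Cxcl11 by 0.15 ± 0.29 (adjusted p = 0.887) and Cxcl9 on 1373544_at by 0.18 ± 0.61 (adjusted p = 0.944). With the replicate block, where 18.4% of all probe sets passed, the rise of Cxcl9 on 1373544_at passed as well (adjusted p = 0.0314, 95% interval 0.0651 to 0.286), but its other probe set, at 0.04, did not (adjusted p = 0.713). At an unadjusted p under 0.05 the blocked fit held 1 of the 4, and 29.2% of all probe sets. In controls alone 0.19% of probe sets passed, or 8.15% with the block, and 0 of the 4 passed by either fit. At an unadjusted p under 0.05 there were 0 of the 4 without the block, where 10.1% of all probe sets were, and 1 with it, where 21.9% were. The adjusted p-values of the 4 in controls ran from 0.758 for Cxcl11 to 0.992 for 1382454_at without the block.

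The level of Cxcl9 differed between replicate numbers rather than between treatments. Over the 4 arrays of each number it averaged 11.78 ± 0.13 in replicate 2, 10.72 ± 0.14 in replicate 1 and 9.34 ± 0.05 in replicate 3 on 1373544_at (SD, n = 4 each). On 1382454_at the averages were 11.70 ± 0.09, 10.75 ± 0.07 and 9.29 ± 0.10. The highest and lowest of these averages lay 2.44 apart on the first probe set, or 5.44-fold, and 2.41 apart on the second, or 5.31-fold. A wider span was found for 68 (0.219%) and 73 (0.235%) of the 31042 probe sets. Replicate 2 exceeded replicate 3 by 2.34 to 2.54 in the 4 groups on the first probe set and by 2.19 to 2.63 on the second. The 4 arrays of each number were fully separated from the others in 2.86% of all probe sets, and in the order 2, 1, 3 in 1.16%. This pattern was noticed in the data, so it carries no test. Cxcl10 and Cxcl11 were not separated by number, with averages that spanned 0.41 and 0.12.

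Markers of cell types were set beside these levels. The 9 hepatocyte markers, among them albumin (Alb) and Serpina1, had a mean level of 13.34 to 13.40 in replicate 1, 13.35 to 13.40 in replicate 2 and 13.19 to 13.24 in replicate 3. The 7 Kupffer cell and macrophage markers, with Cd68 and Cd14 among them, had a mean level of 6.54 to 6.72 in replicate 1. It was 5.53 to 5.64 in replicate 2 and 5.87 to 6.05 in replicate 3. This mean was lowest where Cxcl9 was highest, but it was highest in replicate 1, where Cxcl9 was intermediate. Of the 7 markers 2 were separated by number, as 2.86% of all probe sets were. Cd14 had 11.80 in replicate 2 and 11.59 in replicate 3 with interferon alpha at 3 h. In the other groups Cd14 was lower in replicate 2 than in replicate 3. With interferon alpha at 6 h the levels were 11.77 and 11.96. In controls they were 11.84 and 11.86 at 6 h and 11.68 and 11.70 at 3 h. The 11 lymphocyte and natural killer cell markers had a mean level of 3.91 to 4.09 over all arrays. Of all 50 markers of 7 cell types, 1 was separated by number in the order 2, 1, 3, a stellate cell marker. Of all probe sets 1.16% were. Between interferon alpha and control, 0 of the 50 were called at either time by limma, with 1 at 6 h and 2 at 3 h at an unadjusted p under 0.05. Of all probe sets 0.387% were called at 6 h and 0.00644% at 3 h, and 3.69% and 2.95% had an unadjusted p under 0.05. The part of these markers in the level of Cxcl9 was not tested.

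Genes whose profile was nearest to each chemokine were taken over the 12 arrays, from 13982 genes, by the root mean square difference (RMS) of log2 levels centred on their mean. Nearest to Cxcl10 were Ncoa7 (RMS 0.890), Ifit3 (0.897), Cmpk2 (0.944), Znfx1 (1.03) and Rsad2 (1.04), where the spread of Cxcl10 around its own mean was 2.42. Ifit3 and Rsad2 encode antiviral proteins and Cmpk2 a mitochondrial nucleotide kinase. Ncoa7 resembled Cxcl10 in its time course, with differences of 2.61 ± 0.45 at 6 h and 3.35 ± 0.45 at 3 h. The other four had larger differences at 6 h than at 3 h, such as 4.49 and 3.09 for Ifit3. Since these genes were picked for their likeness over the same arrays, their differences carry no test.

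Nearest to Cxcl11 were Ifi44 (RMS 0.329), Isg15 (0.330), Igtp (0.337), C1h19orf12 (0.351) and Oasl (0.369), against an own spread of 1.17. Isg15 encodes a ubiquitin-like protein, Igtp an immunity-related GTPase and Oasl an antiviral relative of the oligoadenylate synthetases. Their differences between interferon alpha and control ran from 2.39 for C1h19orf12 to 2.89 for Igtp at 6 h and from 1.08 for Igtp to 1.66 for Isg15 at 3 h, so all 5 were larger at 6 h, as Cxcl11 was. These genes too were picked for their likeness over the same arrays, so this carries no test.

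Nearest to Cxcl9 were A1cf (RMS 0.183), Glyat (0.206), Fabp2 (0.240), Npas2 (0.241) and Pck1 (0.242), against an own spread of 1.01. These encode an RNA editing cofactor of apolipoprotein B, a glycine conjugating enzyme, a fatty acid binding protein, a clock transcription factor and the gluconeogenic enzyme phosphoenolpyruvate carboxykinase. All 5 were separated by replicate number, as Cxcl9 and 2.86% of all probe sets were. They were picked for their likeness to Cxcl9 over the same arrays, so this follows from the choice and carries no test. A1cf averaged 8.15 in replicate 2, 7.09 in replicate 1 and 5.51 in replicate 3, and Pck1 10.81, 10.07 and 8.44. The treatment differences of A1cf were -0.22 ± 0.94 at 6 h and -0.14 ± 0.94 at 3 h (SE), and those of the 5 genes ran from -0.22 to 0.26 at 6 h and from -0.24 to -0.11 at 3 h.

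**Figure D3:**
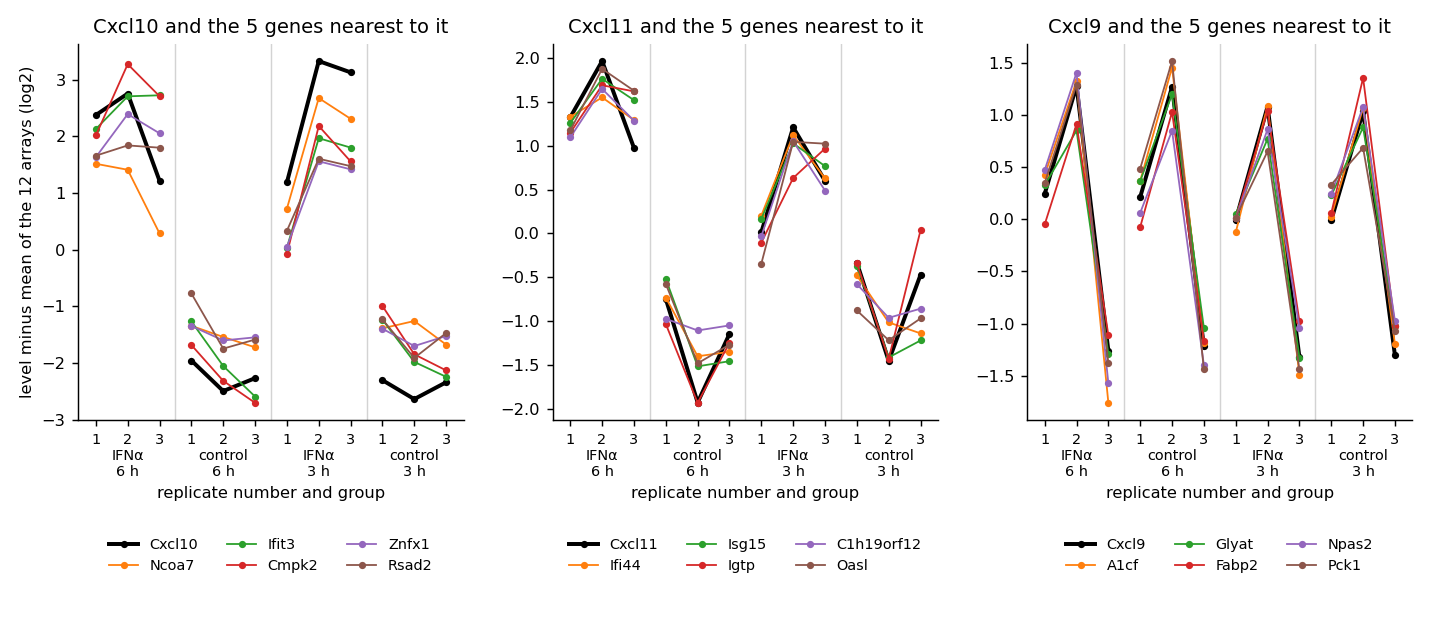
Log2 level minus the mean of the 12 arrays for Cxcl10, Cxcl11 and Cxcl9 (black) and the 5 genes with the nearest profiles (colours), by group and replicate number, with the axis of each panel scaled to its own values. The genes beside Cxcl10 and Cxcl11 are higher in the interferon alpha groups, and those beside Cxcl9 peak in replicate 2 and are lowest in replicate 3 in all 4 groups.

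Other chemokine ligands were compared with the same fit. Of 33 listed ligands 28 were measured, 10 of the CXC family and 18 of the CC, CX3C and XC families, and 0 were called at 6 h, where 0.387% of all probe sets were, or at 3 h, where 0.00644% were. At an unadjusted p under 0.05 there were 3 at 6 h and 1 at 3 h, where 3.69% and 2.95% of all probe sets were. The replicate block also called 0 after adjustment, where 1.1% of all probe sets were called at 6 h and 0.0966% at 3 h. It held 5 and 4 at an unadjusted p under 0.05, where 8.18% and 6.75% of all were. Their differences at 6 h ranged from -0.21 to 0.33 with a median of 0.02, against a median of -0.02 over all probe sets. At 3 h they ranged from -0.23 to 0.41 with a median of 0.04, against -0.01. Most of these ligands had a mean level below the array medians of 5.16 to 5.21, such as Ccl2 (3.99), Ccl5 (4.71) and Ccl20 (3.90). A change in probe sets this dim could be missed, so the 0 calls do not show that these ligands were unchanged.

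Cxcl16, which binds CXCR6, had 9.65, 8.93 and 10.26 with interferon alpha at 6 h, against 9.45, 8.36 and 10.03 in controls. Its difference was 0.33 ± 0.57 at 6 h and -0.09 ± 0.57 at 3 h (SE). Ccl9, a chemoattractant of the macrophage inflammatory protein group in rodents, had 13.72, 13.38 and 12.86 with interferon alpha and 13.63, 13.36 and 13.00 in controls at 6 h. Its difference was -0.01 ± 0.26 at 6 h and 0.04 ± 0.26 at 3 h, and its groups overlapped. Over culture time, 1 of the 28 ligands passed in each direction with the block, where 18.4% of all probe sets passed: Cxcl16 was 0.46 higher at 6 h than at 3 h (adjusted p = 0.000661) and Cxcl12, a chemokine that retains blood progenitors and was named after its values were seen, 1.14 lower (adjusted p = 5.94e-05). Without the block 0 passed, with 1 at an unadjusted p under 0.05.

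Of 23 listed chemokine receptors 17 were measured, on arrays where 0.387% of all probe sets were called at 6 h and 0.00644% at 3 h. The list was chosen with earlier results of these data known, so a call within it is a description. Ccrl2, an atypical receptor that binds chemerin, was the only 1 called, and it rose at 6 h. Its levels were 5.75, 5.58 and 5.11 with interferon alpha at 6 h, against 4.46, 4.47 and 4.68 in controls, a difference of 0.94 ± 0.16 (adjusted p = 0.0301). At 3 h its difference was 0.16 ± 0.16 (adjusted p = 1.00), and whether the responses at the 2 times differ is not shown by these calls. Cxcr3, the receptor of the 3 chemokines, had 3.77, 3.88 and 3.55 with interferon alpha at 6 h and 3.48, 3.50 and 3.54 in controls. Its mean level of 3.71 lay below the array medians of 5.16 to 5.21, where a change could be missed. Its difference was 0.23 ± 0.13 at 6 h and 0.13 ± 0.13 at 3 h, and neither passed (adjusted p = 1.00 each).

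All 14 listed genes of chemokine processing and retention were measured and limma called 0 at either time, with 0 at 6 h and 1 at 3 h at an unadjusted p under 0.05, or 0 and 2 with the block. Of all probe sets 0.387% were called at 6 h and 0.00644% at 3 h. At an unadjusted p under 0.05 the shares were 3.69% and 2.95%, or 8.18% and 6.75% with the block. Dpp4, the protease that trims these chemokines at their N terminus, had 10.82, 11.14 and 10.72 with interferon alpha at 6 h, against 10.82, 11.10 and 10.79 in controls. Its difference was -0.01 ± 0.16 at 6 h and -0.05 ± 0.16 at 3 h. The heparan sulfate carriers Sdc4 and Sdc2, which can hold chemokines at the cell surface, differed by 0.08 ± 0.27 and -0.06 ± 0.13 at 6 h.

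From the interferon receptor to ISGF3 and IRF1, 13 listed genes were measured. They were listed with earlier results of these data known, so their calls and adjusted p-values are a description. Stat2, Irf9 and Usp18 were called higher at 6 h, where 0.387% of all probe sets were called. Stat2, a subunit of ISGF3, differed by 1.51 ± 0.21 (adjusted p = 0.00981) and had 9.91, 10.29 and 10.23 with interferon alpha, against 9.11, 8.52 and 8.26 in controls. Irf9, its DNA-binding subunit, differed by 1.20 ± 0.19 (adjusted p = 0.0209) and had 9.52, 9.57 and 9.73 with interferon alpha, against 8.79, 8.47 and 7.94 in controls. Usp18, which removes ISG15 from proteins and dampens receptor signalling, differed by 2.21 ± 0.35 (adjusted p = 0.0199). In all of these and in Ccrl2 the treated arrays lay above the controls at 6 h. No probe set was called at 6 h when the arrays of replicate 2, or those of replicate 3, were left out, which left 2 arrays a group.

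Irf1, a transcription factor that acts on chemokine promoters, had 9.11, 9.28 and 8.22 with interferon alpha at 6 h, against 7.10, 6.50 and 6.35 in controls. At 3 h it had 8.09, 9.61 and 8.27 with interferon alpha and 6.73, 6.64 and 5.89 in controls. Its differences of 2.22 ± 0.42 at 6 h and 2.24 ± 0.42 at 3 h passed with the block alone (adjusted p = 0.0608 and 0.322 without it, 0.00203 and 0.0218 with it). Like Cxcl10, Irf1 thus had a difference at 3 h of at least the size of that at 6 h, and replicate 2 gave its largest difference at both times. Of the 13 genes, 0 were called at 3 h without the block, with 4 at an unadjusted p under 0.05. Over all probe sets these shares were 0.00644% and 2.95%. The adjusted p-values of Irf1 are a description too, because its list was chosen with earlier results of these data known. The receptor genes Ifnar1 and Ifnar2 differed by -0.12 ± 0.18 and -0.11 ± 0.15 at 6 h.

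**Figure D4:**
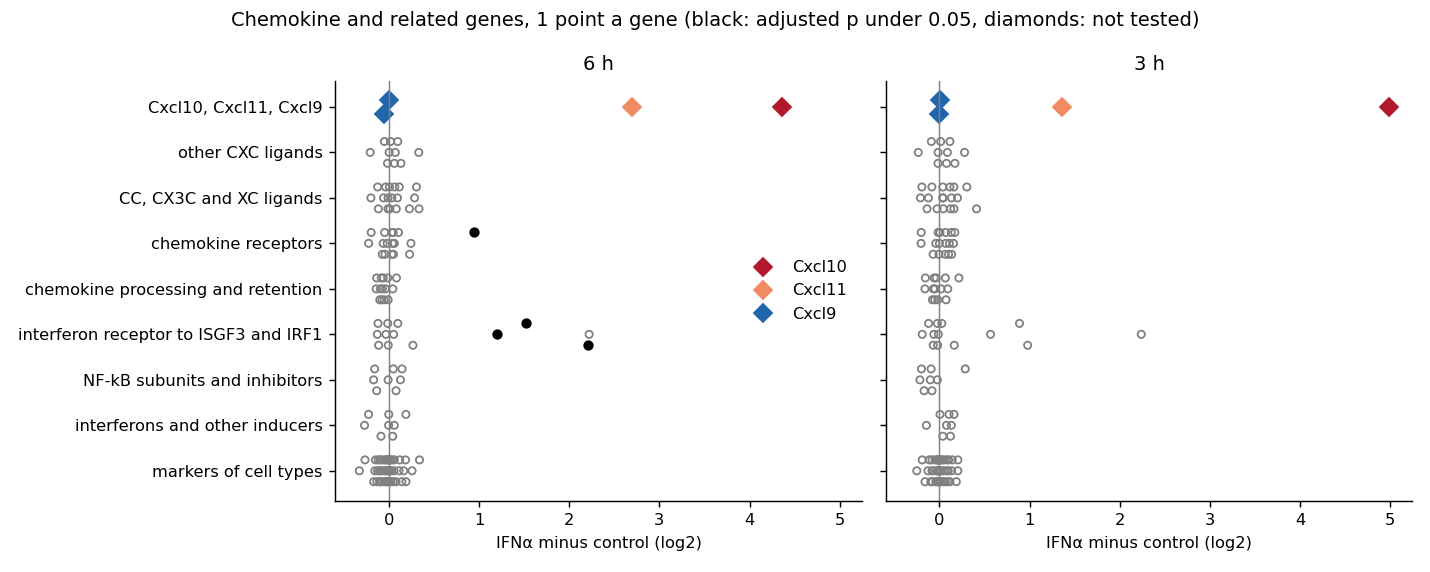
Log2 difference between interferon alpha and control at 6 h (left) and 3 h (right), with 1 point a gene in each list, black points for an adjusted p under 0.05 in limma, and diamonds for the chemokine probe sets, which were not tested here. Cxcl10 lies at 4.36 and 4.98, Cxcl11 at 2.70 and 1.36, and all other ligands between -0.23 and 0.41.

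Neither NF-kB genes nor other inducers of these chemokines were called between interferon alpha and control. Of 10 listed NF-kB subunits and inhibitors 8 were measured and 0 were called at either time by limma, with 0 at an unadjusted p under 0.05, or 1 at 6 h and 2 at 3 h with the block. Of all probe sets 0.387% were called at 6 h and 0.00644% at 3 h. At an unadjusted p under 0.05 the shares were 3.69% and 2.95%, or 8.18% and 6.75% with the block. Rela, a subunit of NF-kB, differed by 0.08 ± 0.19 at 6 h, and Nfkbia, its inhibitor and target, by -0.16 ± 0.36. Over culture time, averaged over both treatments, where 3.89% of all probe sets passed, 1 of the 8 did, Nfkb1, named after its values were seen, at 0.29 (adjusted p = 0.0312). With the block 3 of the 8 passed, where 18.4% of all probe sets did. These were Nfkb1 and Rela, higher at 6 h, and Nfkbiz, lower, by 0.29, 0.49 and -0.62. Of 10 listed interferons and other inducers 8 were measured and 0 were called at either time, again with 0 at an unadjusted p under 0.05, or 2 at 6 h and 0 at 3 h with the block. The shares over all probe sets were those given for the NF-kB genes. All 8 inducers had a mean level below the array medians of 5.16 to 5.21, from 3.08 to 5.00. A change in probe sets this dim could be missed, so the 0 calls do not show that these inducers were unchanged. Il18 differed by 0.19 ± 0.13 at 6 h and Ifng, the gene of interferon gamma and named after its values were seen, by -0.23 ± 0.11 (adjusted p = 1.00 each).

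The genes beside the cluster on chromosome 14 were read from the RefSeq gene order of GRCr8. Scarb2, Nup54 and Art3 come before it and Sdad1, Naaa and Uso1 after it, counting protein-coding genes with a probe set of a single symbol. Art3, an ADP-ribosyltransferase family gene, overlaps Cxcl11 and Cxcl10 in the annotation. It differed by 0.11 ± 0.11 at 6 h and -0.05 ± 0.11 at 3 h. The mean levels of Art3 (4.54) and Naaa (4.92) lay below the array medians of 5.16 to 5.21, where a change could be missed. Sdad1, next to Cxcl9, differed by -0.10 ± 0.25 and -0.08 ± 0.25. The differences of all 6 ran from -0.10 to 0.24 at 6 h and from -0.19 to 0.09 at 3 h, and 0 were called at either time (adjusted p = 1.00 each). Of all probe sets 0.387% were called at 6 h and 0.00644% at 3 h. None of the 6 neighbours was separated by replicate number, as Cxcl9 and 2.86% of all probe sets were.

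**Figure D5:**
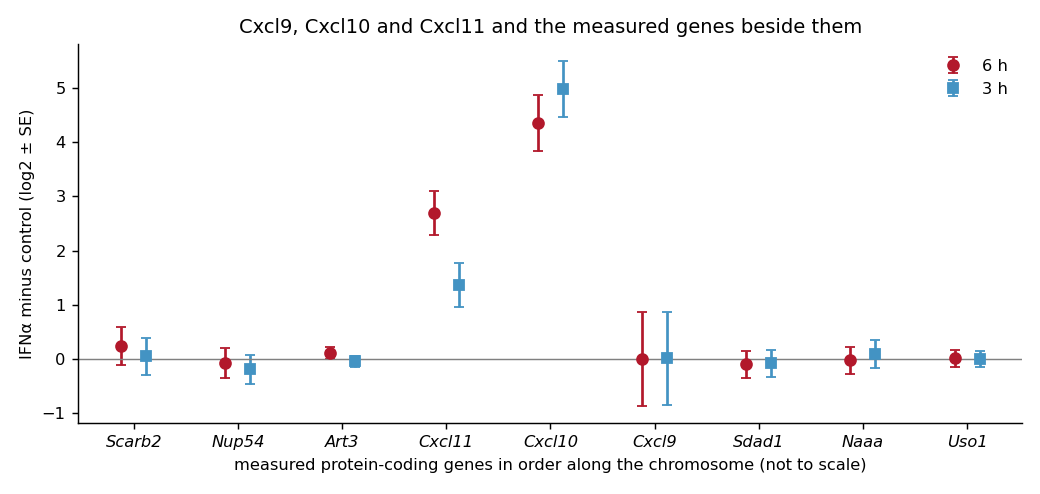
Log2 difference between interferon alpha and control with its SE from limma, at 6 h (circles) and 3 h (squares), for Cxcl11, Cxcl10, Cxcl9 (1373544_at) and the 6 nearest measured protein-coding genes, in chromosome order and not to scale. Cxcl11 and Cxcl10 stand away from 0, and Cxcl9 has the widest bars, with an SE of 0.86. The bars come from the fit without the replicate block. With the block the SE of Cxcl9 was 0.07 at 6 h and at 3 h.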

How the data were processed

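Biotinylated cRNA, made from 5 µg of total RNA in 12 samples, was hybridised to Affymetrix arrays, per the labels' protocols. Per the submitters' processing notes, which name R 2.10.0, affy and RMA, the authors deposited log2 levels for each probe set, and this scaling hides a change common to most transcripts of an array. Groups and replicate numbers came from the sample titles. The 57 control probe sets were left out, leaving 31042, of which 20826 had 1 symbol in the platform annotation, 436 several and 9780 none listed. By Entrez identifier 20758 matched RefSeq genes of GRCr8. A gene with several probe sets is represented by that with the highest mean.

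Differences were fitted in R 4.3.3 with limma 3.58.1 (lmFit, eBayes) in 1 fit of 4 groups with 8 residual degrees of freedom, with two-sided p-values adjusted within each comparison over all 31042 probe sets (Benjamini-Hochberg, called under 0.05). The scripts were tested on simulated data whose noise was independent between arrays, so that test does not cover arrays paired by replicate number. The number of arrays, 3 a group, limits the precision. Replicate numbers pair the arrays: deviations from the group mean correlated at 0.651 to 0.829 within a number and time (6 pairs) and 0.479 to 0.736 within a number across times (12 pairs), against -0.562 to -0.0747 between numbers, so a fit with the number as a block was run beside it. Named genes were the members, their 3 measured neighbours a side, Cxcr3, Dpp4, Ifnar1, Ifnar2, Stat2, Irf9 and Irf1, up to 4 called or the 2 brightest genes of each list, and the 5 nearest profiles. Members and lists were chosen with earlier results of these data known.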

Additional observations from a re-analysis of the deposited data

How the results depend on the processing

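With the replicate block, 340 probe sets were called between interferon alpha and control at 6 h in place of 120, 30 at 3 h in place of 2, 5724 over culture time averaged over treatments in place of 1209, and 2529 in controls in place of 59. The block also called the averaged time difference of Cxcl9 (0.175) and changed no other call of the 3 chemokines. A block within each time gave 341 and 10 calls at 6 h and 3 h, and each time fitted alone gave 69 and 0. At 3 h, limma-trend, a filter on dim probe sets and median centring each gave 1 call, and limma-trend gave 8 in controls over time. The other Cxcl9 probe set gave -0.0575 at 6 h and -0.0587 for the response at 6 h minus 3 h. The cause of these shifts was not tested.

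Leaving out 1 array or 1 replicate number gave ranges. Cxcl10 kept 3.91 to 4.81 at 6 h and 4.48 to 5.72 at 3 h, and Cxcl11 2.10 to 3.01 and 0.71 to 1.87. The response difference was -1.35 to 0.06 for Cxcl10 and 1.01 to 1.69 for Cxcl11. The averaged time difference ran from -0.57 to 0.28, -0.0284 to 0.31 and -0.13 to 0.51 for Cxcl10, Cxcl11 and Cxcl9, and that in controls from 0.05 to 0.32, -0.87 to -0.19 and -0.42 to 0.83. Leaving out single arrays of replicate 2 or 3 unbalanced Cxcl9, whose difference ran from -0.65 to 0.67 at 6 h, -0.60 to 0.63 at 3 h and -0.66 to 0.66 between the responses, with both ends of each range from replicate 3; without an array of replicate 2 it reached -0.60 and 0.59 at 6 h. Without a whole replicate number its treatment differences stayed within -0.02 to 0.02. Calls ran from 0 to 124 at 6 h, 0 to 23 at 3 h, 3 to 989 over averaged time and 1 to 16 in controls, with the lowest at 6 h without replicate 2 or replicate 3. Other ligands and neighbouring genes had 0 calls between interferon alpha and control under every alternative run. Of 469 values compared, 370 kept their direction, call and size.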
